A study of Homo sapiens with 6 samples.

Results

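The natriuretic peptide system was examined through 7 genes: the peptide genes NPPA, NPPB and NPPC, the receptor genes NPR1, NPR2 and NPR3, and CORIN, which encodes a protease of the peptide precursors. They are 7 of the 37803 gene symbols listed once in both deposited expression tables. NPPB was chosen by its values in the knockout columns, where it is among the genes with the largest increase, and the other 6 genes were selected by name as members of the same hormone system. The knockout-against-WT values of NPPB are therefore a description and carry no test.

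RNA-seq was performed on the human embryonic stem cell line H1 at day 2 of hematopoietic differentiation, when the cells are induced toward mesoderm. All groups received activin A and BMP4, at 40 and 50 ng/ml by the labels, while the methods of the study give these doses the other way round. Unedited cells (WT, n = 2) were compared with cells after SNAI1 deletion in groups named SNAI1_KO_1 and SNAI1_KO_2 (n = 2 each), after the first of the 2 numbers in their titles, which the labels do not explain. SNAI1 is a zinc-finger repressor that drives epithelial-mesenchymal transition, and the study deleted it by CRISPR/Cas9, keeping a pair of frameshift lines for each gene. Each table held 1 library of each group and was normalized on its own, so every knockout library was compared with the WT library of the same table. Nothing states that libraries of a group came from separate cultures, so p-values measure only the spread between these libraries.

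Natriuretic peptides are secreted hormones that lower blood pressure and salt load. NPPA encodes atrial natriuretic peptide and NPPB encodes brain natriuretic peptide, which despite its name is made mainly by heart muscle and whose mRNA increases when the heart wall is stretched. NPPC encodes C-type natriuretic peptide, which acts locally, for example on growing cartilage. NPR1, the receptor of the NPPA and NPPB products, and NPR2, the receptor of the NPPC product, are membrane guanylyl cyclases that make cyclic GMP, whereas NPR3 binds and clears all of these peptides. NPPA and NPPB are widely used as markers of developing heart muscle, a cell type that forms later than the day examined here.

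The peptides share a ring closed by a disulfide bond between a pair of cysteines, and the coding stretches of NPPB and NPPC that run from the first to the last of these codons are shown to identify the family. In the GENCODE release 29 transcripts (GRCh38) each stretch holds 17 codons (51 bases), lies within exon 2 and is read from the minus strand. The NPPB stretch lies at chr1:11858218-11858268 and the NPPC stretch at chr2:231925428-231925478. Capitals mark the cysteine codons at either end.
NPPB: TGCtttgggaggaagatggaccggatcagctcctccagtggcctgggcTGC
NPPC: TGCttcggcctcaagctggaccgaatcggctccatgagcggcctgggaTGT
The NPPB and NPPC stretches share 37 of 51 bases (72.5%).

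SNAI1 mRNA itself was 37.1 and 36.4 FPKM (fragments counted per unit of transcript length and of mapped fragments) in WT, here and in what follows with the value of the first table before that of the second. SNAI1_KO_1 had 51.6 and 47.8, and SNAI1_KO_2 had 68.6 and 55.0, and this rise passed (log2 difference 0.58, adjusted p 0.00461 by limma) but not without the term for the table (0.0761). A frameshift can leave the transcript in place, so these values do not check the labels. FPKM summed to between 603399 and 633851 per library. Absolute depth cannot be read from FPKM, but depth estimated relative to WT of that table ran from 0.876 to 1.11. Mesoderm markers of the labelled stage were present in all 6 libraries but differed between the groups: MIXL1 was between 388 and 462 FPKM throughout, APLNR was 621 and 573 in WT and between 217 and 280 in the knockout libraries, and TBXT was 17.8 and 38.7 in WT and between 130 and 251.3 in the knockout libraries.

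NPPB was the most highly expressed of the 7 genes in every library, and far higher in the knockout libraries than in WT. In WT it was 18.2 FPKM in the first table and 12.7 in the second. In SNAI1_KO_1 it was 317 and 281 FPKM, and in SNAI1_KO_2 it was 314 and 303. All 4 knockout values exceeded both WT values, as for 16.9% of the genes tested and as the choice of NPPB favored. Within a table the ratio to WT was 17.4 and 17.2 in the first and 22.2 and 23.9 in the second. WT NPPB exceeded 65.7% and 56.4% of the genes tested, whereas in the knockout libraries it exceeded between 98.0% and 98.3%.

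On the log2(FPKM + 1) scale the 4 within-table differences of NPPB from WT were 4.05 and 4.37 for SNAI1_KO_1 and 4.03 and 4.47 for SNAI1_KO_2, with a mean of 4.23. This places NPPB second by difference among the 13909 genes tested. Just above it was RPS29P5, a processed pseudogene with a difference of 4.58 which in WT was 48.1 FPKM in the second table and listed at 0 in the first. Just below it was ACTA1, skeletal muscle actin, with 4.20. The comparison between the knockout groups was not used to choose NPPB. There the difference (SNAI1_KO_2 minus SNAI1_KO_1) was 0.04 ± 0.11 (SE), with a 95% interval from -0.23 to 0.32 and 0.9996 as its adjusted p by limma, so a difference between the knockout groups was not detectable. In that comparison 0% of all genes tested passed, and 521 had an unadjusted p under 0.05.

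**Figure D1:**
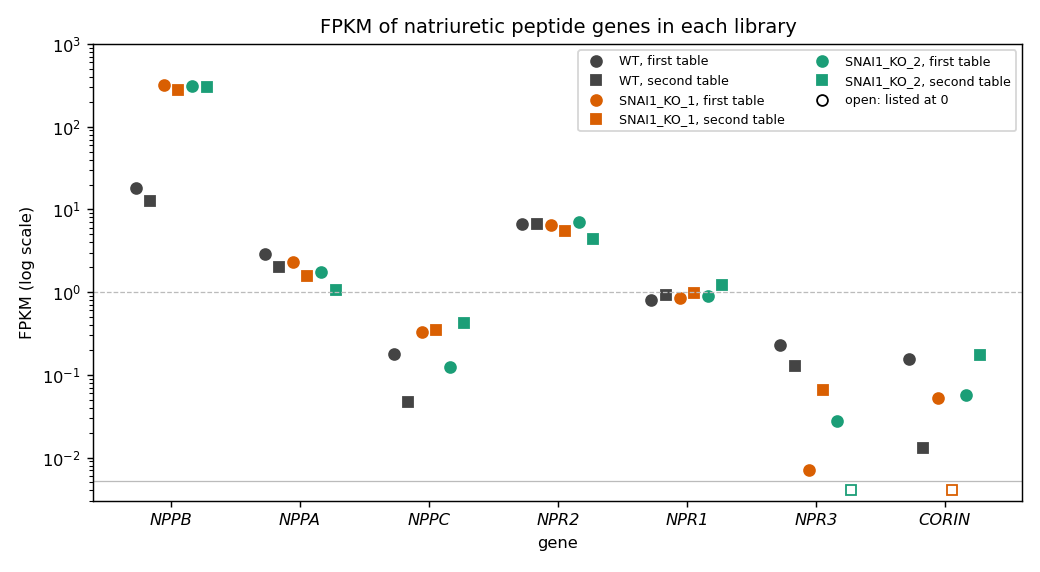
FPKM (log axis) of the 7 genes in each of the 6 libraries. Color gives the group, circles the first table, squares the second, open symbols below the solid line are values listed at 0, and the dashed line is 1 FPKM. NPPB lies at 12.7 and 18.2 in WT and between 281 and 317 in the knockout libraries, and no other gene shows a gap of this size above WT.

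NPPA, which lies next to NPPB on chromosome 1, had the opposite sign. Reads from bases that NPPA shares with an antisense transcript described below cannot be told apart, so its values are uncertain. NPPA was 2.92 and 2.02 FPKM in WT, 2.29 and 1.56 in SNAI1_KO_1, and 1.74 and 1.05 in SNAI1_KO_2. Each knockout library was below the WT library of its own table, as was the case for 35.1% of all genes tested, but the pooled values overlapped, since the lower WT value is below the higher SNAI1_KO_1 value. The log2 difference over both knockout groups was -0.39 ± 0.13 (SE), with a 95% interval from -0.71 to -0.08 and an adjusted p of 0.0671 by limma, which missed the threshold of 0.05. Neither NPPA nor NPR2, the members tested besides NPPB, passed in this contrast, in which 31.3% of all genes tested were called.

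Taken alone, SNAI1_KO_2 passed for NPPA (log2 difference -0.54, adjusted p 0.0480 by limma). In that contrast 12% of the genes tested were called lower. SNAI1_KO_1 did not pass (-0.24, adjusted p 0.273). The difference between the knockout groups was itself -0.29 ± 0.14 (SE, adjusted p 0.9996 by limma), so the groups were not shown to differ. NPPB exceeded NPPA by a ratio of 6.23 and 6.29 in the WT libraries, 138 and 180.4 in SNAI1_KO_1 and 181 and 289 in SNAI1_KO_2. Of the FPKM summed over the 3 peptide genes, NPPB made up 85.4% and 86.0% in WT and between 99.2% and 99.5% in the knockout libraries.

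NPPC stayed below 0.5 FPKM throughout. It was 0.178 and 0.0473 FPKM in WT, 0.332 and 0.347 in SNAI1_KO_1, and 0.123 and 0.428 in SNAI1_KO_2. The value was above WT in 3 of 4 within-table comparisons and below it in SNAI1_KO_2 of the first table. Pooled over both knockout groups, the values overlapped those of WT. NPPC did not reach a mean of 1 FPKM and was not tested. With that filter removed the log2 difference was 0.23, with an adjusted p of 0.396 by limma.

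**Figure D2:**
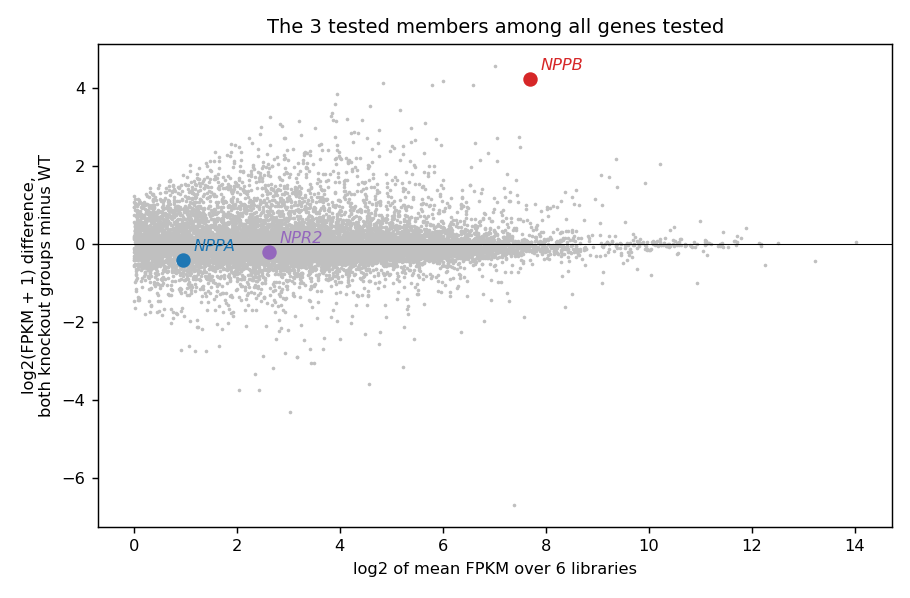
Difference in log2(FPKM + 1), both knockout groups minus WT (y), against log2 of the mean FPKM (x) for the 13909 genes tested (gray). NPPB (4.23) stands near the top, while NPPA (-0.39) and NPR2 (-0.18) lie within the gray cloud.

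Among the receptors, NPR2 was the most highly expressed, and its mRNA did not pass the test. It was 6.65 and 6.73 FPKM in WT, 6.54 and 5.49 in SNAI1_KO_1, and 7.04 and 4.34 in SNAI1_KO_2. The knockout values fell on both sides of WT in the first table and below it in the second. The log2 difference was -0.18 ± 0.14 (SE), with a 95% interval from -0.55 to 0.18 and an adjusted p of 0.382 by limma. The value rests on the second table, and without its WT library the difference was 0.025.

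NPR1, the receptor through which the NPPB product signals, stayed close to 1 FPKM. It was 0.806 and 0.934 in WT, 0.845 and 0.975 in SNAI1_KO_1, and 0.906 and 1.22 in SNAI1_KO_2. All 4 knockout libraries were above the WT library of their table, by log2 differences between 0.03 and 0.20, and 26.2% of all genes tested were above WT in all 4. Its mean of 0.947 FPKM fell just under the filter. With the filter removed the adjusted p was 0.676 by limma.

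NPR3, the clearance receptor, was 0.232 and 0.128 FPKM in WT. It was 0.00715 and 0.0661 in SNAI1_KO_1, and in SNAI1_KO_2 it was 0.0274 in the first table and listed at 0 in the second. All 4 knockout values were below both WT values, as for 17.1% of the genes tested, but NPR3 was too low to be tested. With the filter removed its log2 difference was -0.20 and its adjusted p 0.141 by limma. Of the FPKM summed over the 3 receptors, NPR2 made up 86.5% and 86.4% in WT and between 78.1% and 88.5% in the knockout libraries.

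CORIN, the membrane protease that cleaves the NPPA precursor, was barely expressed. It was 0.154 and 0.0132 FPKM in WT, 0.0532 and 0 in SNAI1_KO_1, and 0.0563 and 0.175 in SNAI1_KO_2. The WT values overlapped those of each knockout group. CORIN was not tested, and with the filter removed its adjusted p was 0.932 by limma.

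In all 6 libraries NPPB was thus followed by NPR2. NPPA came next in every library but SNAI1_KO_2 of the second table, where NPR1 (1.22 FPKM) exceeded NPPA (1.05). The lowest places were held by NPPC, NPR3 and CORIN, whose order changed from library to library and whose WT values overlap. In total 3 of the 7 genes (NPPA, NPPB and NPR2) reached the mean of 1 FPKM, and each of these 3 was above 1 FPKM in every library, WT included.

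NPPB and NPPA lie side by side, and 7 genes around them on chromosome 1 were examined as well. The order is AGTRAP, C1orf167, CLCN6, NPPA-AS1, NPPA, NPPB, KIAA2013, PLOD1 and MFN2. Of the 7 genes around the pair, 2 rose and 2 fell, beside 15.8% of all genes tested called higher and 15.4% lower. None of the 7 differed by as much as NPPB. NPPA-AS1, an antisense transcript of NPPA, was 0.649 and 1.45 FPKM in WT, 2.43 and 2.31 in SNAI1_KO_1, and 3.24 and 3.77 in SNAI1_KO_2. All 4 knockout values exceeded both WT values, as for 16.9% of the genes tested, and the log2 difference was 0.95 ± 0.17 (SE, adjusted p 0.0122 by limma). CLCN6, a chloride transporter gene, rose by 0.27 (adjusted p 0.0426 by limma). On the other side of NPPB, PLOD1, a collagen lysyl hydroxylase, fell by 0.31 (adjusted p 0.0106) and MFN2, a mitochondrial fusion protein, by 0.32 (adjusted p 0.0147). AGTRAP (0.17), C1orf167 (-0.28) and KIAA2013 (-0.08) did not pass, and C1orf167 was between 0.0114 and 0.491 FPKM in the first table but between 2.52 and 3.05 in the second. Without the term for the table none of these 7 genes passed, with NPPA-AS1 closest at an adjusted p of 0.0573.

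The library kit named in the labels does not mark strand, and NPPA-AS1 and CLCN6 overlap NPPA on the opposite strand. Reads from bases that NPPA shares with them cannot be told apart. NPPA is uncertain for this reason. The ratio of NPPA to NPPA-AS1 FPKM was 4.50 and 1.39 in WT, 0.943 and 0.677 in SNAI1_KO_1, and 0.536 and 0.278 in SNAI1_KO_2. It was below the WT value of the same table in all 4 knockout libraries. The summed FPKM of NPPA and NPPA-AS1 went the other way. This sum was 3.57 and 3.47 in WT, 4.72 and 3.87 in SNAI1_KO_1, and 4.97 and 4.82 in SNAI1_KO_2. Each FPKM is divided by the length of its own transcript, so the sum does not measure all reads from both. How reads were divided between NPPA and NPPA-AS1 was not tested.

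**Figure D3:**
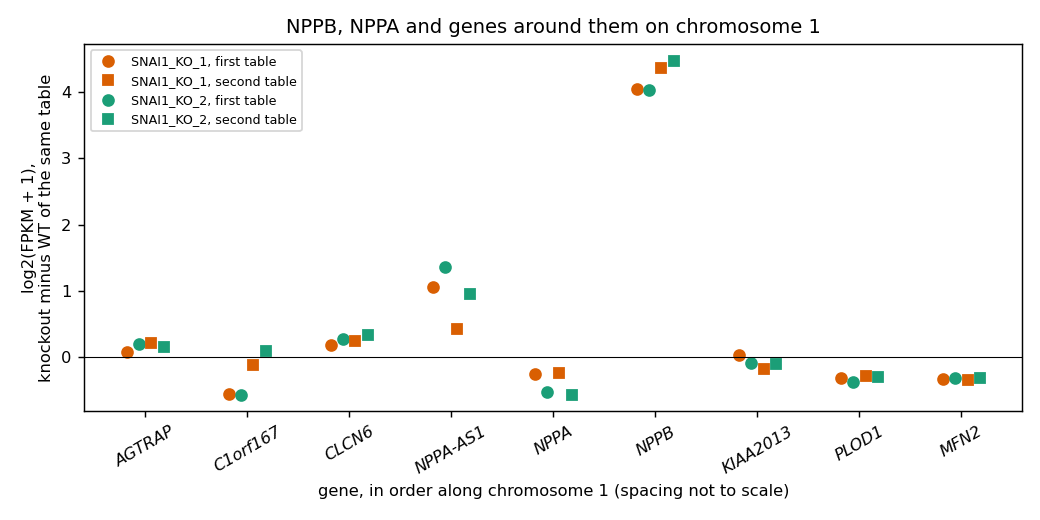
Differences in log2(FPKM + 1) from the WT library of the same table (y) for 9 genes in their order on chromosome 1 (x, not to scale). Color gives the knockout group and shape the table. NPPB lies between 4.03 and 4.47, NPPA between -0.56 and -0.24, and NPPA-AS1 is the only other gene of the 9 to exceed 0.4.

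Other genes of peptide processing and breakdown, a list that also holds genes acting on CORIN or NPR3, differed little. Of the 8 genes listed, 5 were tested, of which 2 rose and 1 fell, with a median log2 difference of 0.30 beside -0.05 for all genes tested. In this contrast 15.8% of all genes were called higher and 15.4% lower. FURIN, the convertase that cleaves the NPPB precursor, rose by 0.30 (adjusted p 0.0473 by limma), from 25.5 and 47.5 FPKM in WT to 32.0 and 58.9 in SNAI1_KO_1 and 28.2 and 64.3 in SNAI1_KO_2. IDE, the insulin-degrading enzyme, also rose by 0.30 (adjusted p 0.0415), and PCSK7 fell by 0.22 (adjusted p 0.0391). PCSK6, a convertase of the CORIN precursor, did not pass (0.34, adjusted p 0.0698). MME did not pass either (0.08, adjusted p 0.755 by limma), with knockout values below WT in the first table and above it in the second. OSTN, whose product is a ligand of NPR3, was at or near 0 in every library. Without the term for the table FURIN, IDE and PCSK7 did not pass, with adjusted p between 0.376 and 0.811 by limma.

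For cyclic GMP, 27 genes of its synthesis by any route, response and breakdown were listed, of which 25 were found and 9 were tested. Not all of them act downstream of NPR1 and NPR2. Of these 9, 3 rose and 4 fell, beside 15.8% of all genes tested called higher and 15.4% lower, with a median log2 difference of -0.30. CNGA3 reached the filter only through the WT libraries, and without it 3 of 8 rose, 3 fell and the median was -0.05. PRKG1, a cyclic GMP-dependent protein kinase, was 1.52 and 1.01 FPKM in WT, 3.30 and 2.88 in SNAI1_KO_1 and 2.85 and 2.92 in SNAI1_KO_2 (log2 difference 0.82, adjusted p 0.00970 by limma). VASP, an actin regulator phosphorylated by that kinase, rose by 0.68 (adjusted p 0.000954). PDE5A, the cyclic GMP phosphodiesterase, rose by 0.48 (adjusted p 0.0374). On the other hand NOS3, the endothelial nitric oxide synthase, fell by 1.05 on the log2 scale (adjusted p 0.0104), from 3.93 and 3.62 FPKM in WT to between 0.667 and 1.86 in the knockout libraries. PDE10A fell by 1.41 (adjusted p 0.00117) and CNGA3, a cyclic nucleotide-gated channel, by 0.88 (adjusted p 0.00795), while PDE9A did not pass (-0.30, adjusted p 0.0534). The soluble guanylyl cyclase genes GUCY1A1, GUCY1A2 and GUCY1B1 were below 1 FPKM in all 6 libraries. Without the term for the table VASP and PDE5A did not pass (adjusted p 0.258 and 0.180 by limma).

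**Figure D4:**
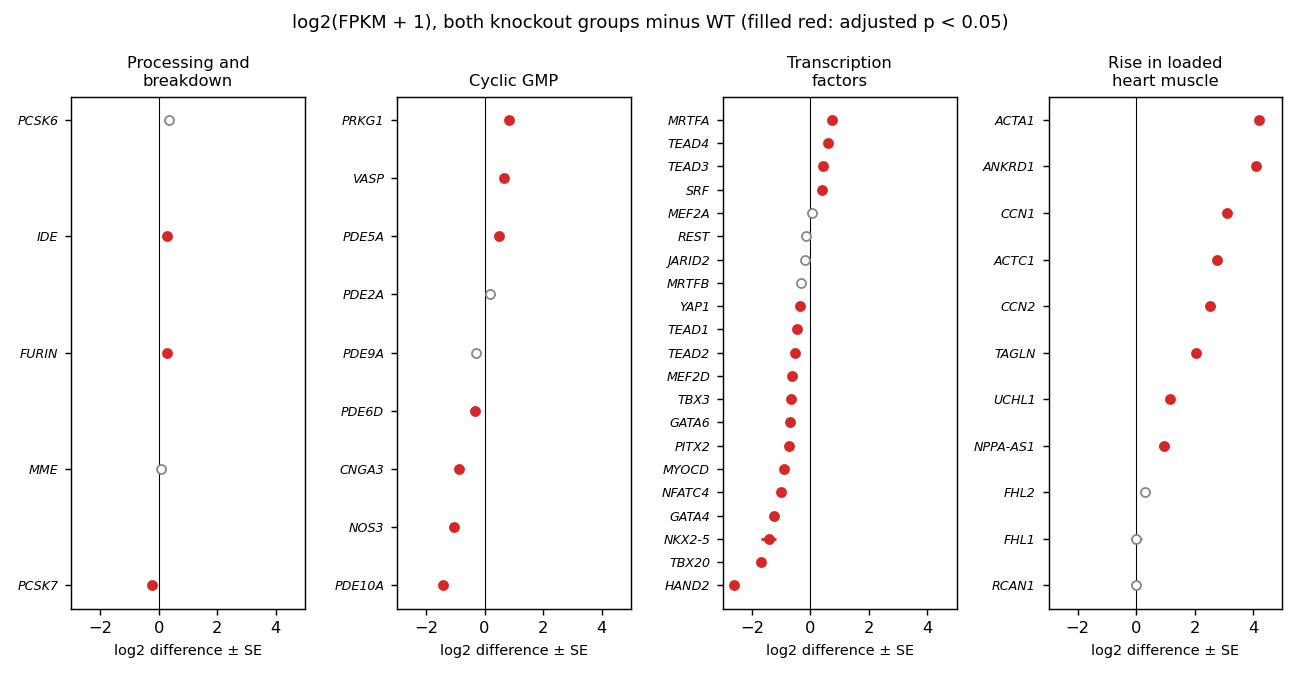
Log2(FPKM + 1) differences with SE (x), both knockout groups minus WT, for the tested genes of 4 lists (y). Filled red points passed an adjusted p of 0.05 and open points did not. In the list of transcription factors 13 of 21 points are filled and left of 0, whereas in the list of genes that rise in loaded heart muscle 8 of 11 are filled and right of 0.

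Transcription factors known to act on NPPA or NPPB mostly fell. The list mixes activators with repressors, so its counts give no direction of regulation. Of 25 listed, 21 were tested, of which 13 fell and 4 rose, with a median log2 difference of -0.53. Among all genes tested 15.4% were called lower and 15.8% higher, so the share that rose was near that of all genes. HAND2 and TBX20 reached the filter only through the WT libraries, and without them 11 of 19 fell and the median was -0.45. HAND2, a heart and limb factor, was 6.75 and 10.1 FPKM in WT, 0.451 and 0.545 in SNAI1_KO_1 and 0.432 and 0.655 in SNAI1_KO_2 (log2 difference -2.61, adjusted p 0.000426 by limma). GATA4, which activates both promoters in heart muscle, was 104 and 126 FPKM in WT and between 42.7 and 51.2 in the knockout libraries, a difference of -1.23 (adjusted p 0.00120). TBX20 (-1.70), NKX2-5 (-1.42), NFATC4 (-0.996) and MYOCD (-0.91) fell as well, with adjusted p between 0.00133 and 0.0130. MEF2C and TBX5 were below 0.5 FPKM in all libraries, and REST, a repressor of both peptide genes, did not pass (-0.16, adjusted p 0.277).

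The 4 factors that rose, named here after their values were seen, were MRTFA (0.75), a cofactor of serum response factor, SRF itself (0.40), and TEAD4 (0.60) and TEAD3 (0.44), which bind M-CAT elements. Their adjusted p lay between 0.00117 and 0.0169 by limma. Without the term for the table none of these 4 passed (adjusted p between 0.212 and 0.550), nor did NKX2-5 (0.101) and NFATC4 (0.0505). Close relatives of these 4 on the same list did not rise. With the term for the table, TEAD1 (-0.45, adjusted p 0.00508 by limma) and TEAD2 (-0.53, adjusted p 0.00122) fell. YAP1, a cofactor of TEAD factors, fell as well (-0.35, adjusted p 0.0114), and MRTFB did not pass (-0.33, adjusted p 0.0775).

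Sequences around the start sites were searched for the motifs of such factors, as a description only. RefSeq promoter windows (250 bases before to 50 after the start, GRCh38.p14) matched 6 of the 7 members, all but NPPB, and both strands were searched. The E-box CAGGTG, bound by SNAIL proteins and present in 20.6% of all 35116 windows, was in none of these 7 windows, nor was the CArG box of SRF (1.29% of all windows). The GATA motif GATAA (22.7% of all windows) occurred 2 times in the NPPA window and 1 time in that of NPPC. The M-CAT core CATTCC (14.0%) occurred 1 time, in a window of NPR3, and the AP-1 motif TGACTCA (4.95%) occurred 1 time, in that of NPPA. The 250 bases before the NPPA start (chr1:11847784-11848033, minus strand) are shown because 2 GATA matches lie in them, in capitals at -141 to -137 and -95 to -91 from the start, with the AP-1 match in capitals at -240 to -234.
NPPA: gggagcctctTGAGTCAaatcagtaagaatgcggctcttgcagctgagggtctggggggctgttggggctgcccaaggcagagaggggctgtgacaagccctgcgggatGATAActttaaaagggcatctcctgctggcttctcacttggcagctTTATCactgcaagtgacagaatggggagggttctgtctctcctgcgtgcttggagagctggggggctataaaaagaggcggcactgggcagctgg

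Genes known to increase together with NPPA and NPPB in loaded heart muscle were also listed. Like the other lists, this one was chosen with earlier results of these data known, those of ACTA1 and ANKRD1 among them. Of 15 listed, 11 were tested, of which 8 rose and 0 fell, with a median log2 difference of 2.05. The shares among all genes tested were 15.8% higher and 15.4% lower. Without ACTA1 and ANKRD1, 6 of 9 rose and 0 fell, and the median was 1.16. With or without ACTA1 and ANKRD1, these counts describe a list that was not chosen blind to the data. ANKRD1, a titin-binding stress response protein, was 7.81 and 6.53 FPKM in WT, 165 and 107 in SNAI1_KO_1 and 164 and 124 in SNAI1_KO_2. ACTC1, cardiac actin, was 42.9 and 29.7 FPKM in WT and between 202 and 278 in the knockout libraries (log2 difference 2.75, adjusted p 0.000197 by limma). CCN1 and CCN2, matricellular proteins, rose by 3.10 and 2.53 (adjusted p 0.000281 and 0.000730), and TAGLN, an actin-binding protein, rose by 2.05 (adjusted p 0.000141). FHL2 did not pass (0.30, adjusted p 0.0720). MYH7, XIRP1, XIRP2 and CSRP3, genes of sarcomere proteins, were below 0.1 FPKM in every library.

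Of 13 defining markers of heart muscle, 6 were below 1 FPKM in all libraries and 6 were tested, of which 4 rose (MYL7, TNNT2, TNNC1 and RYR2) and 1 fell (NKX2-5). Over all genes tested, 15.8% were called higher and 15.4% lower. RYR2 reached the filter only through the knockout libraries, and without it 3 of 5 rose. Their summed level was between 120 and 131 FPKM in WT and between 219 and 309 in the knockout libraries, most of it MYL7, an atrial myosin light chain. MYL2 was listed at 0 in all 6 libraries, and MYH6 and MYH7, the heart myosin heavy chains, did not exceed 0.0306 FPKM. In bulk RNA, a change in the number of cells of a type and a change in RNA per cell cannot be told apart.

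Some markers of other cell types differed between the groups as well, and their part in the NPPB values was not tested. The counts below stand beside 15.8% of all genes tested called higher and 15.4% called lower. Of 6 smooth muscle markers 4 were tested and 2 rose, and their summed level went from 407 and 452 FPKM in WT to between 1567 and 1809, nearly all of it TAGLN. Of 11 amnion or trophoblast markers 6 were tested, 3 rose (TFAP2A, GABRP and IGFBP3) and 1 fell (GATA3), with sums of 47.3 to 72.9 FPKM in WT and 68.8 to 103 in the knockout libraries. GABRP and IGFBP3 reached the filter only through the knockout libraries, and without them 1 of 4 rose and 1 fell. CGA and VTCN1 of that list did not exceed 0.124 FPKM. Of 9 mesoderm markers 2 rose and 5 fell (1 of the 2, MSGN1, reached the filter only through the knockout libraries), of 7 pluripotency markers 3 rose and 0 fell, and of 5 definitive endoderm markers 1 rose and 3 fell. Endothelial markers summed to between 2.94 and 3.95 FPKM in every library, and the only endothelial marker tested, TEK, did not pass. Of 4 neural markers 1 was tested and rose (TUBB3), while SOX1 and NEUROG2 did not exceed 0.0432 FPKM and PAX6, at 1.29 and 2.38 in WT and between 0.0242 and 0.184 in the knockout libraries, was too low to be tested.

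Finally, genes whose pattern was close to that of NPPB were listed, by the root mean square distance between the 4 within-table log2 differences of a gene and those of NPPB. Over the 13909 genes tested the 7 reported were ESRG (0.19), ACTA1 (0.32), ANKRD1 (0.36), IGFBP3 (0.42), ABHD12B (0.65), CLDN4 (0.69) and ACTG2 (0.87). ESRG, a long noncoding RNA of human pluripotent cells, was 3.58 and 3.88 FPKM in WT and between 62.3 and 112 in the knockout libraries. IGFBP3, which binds insulin-like growth factors, was below 1 FPKM in both WT libraries and between 20.7 and 25.0 in the knockout libraries. ABHD12B had a mean of 0.880 FPKM in WT and 21.9 in the knockout libraries. IGFBP3 and ABHD12B thus reached the filter only through the knockout libraries. All 7 genes were selected for their likeness to NPPB in this contrast, and the 4 differences share the WT libraries, so their increase is a description with no test. NPPB had the highest level of these 8 genes in every library, being 317 FPKM in SNAI1_KO_1 of the first table, where ANKRD1, the next, was 165.

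**Figure D5:**
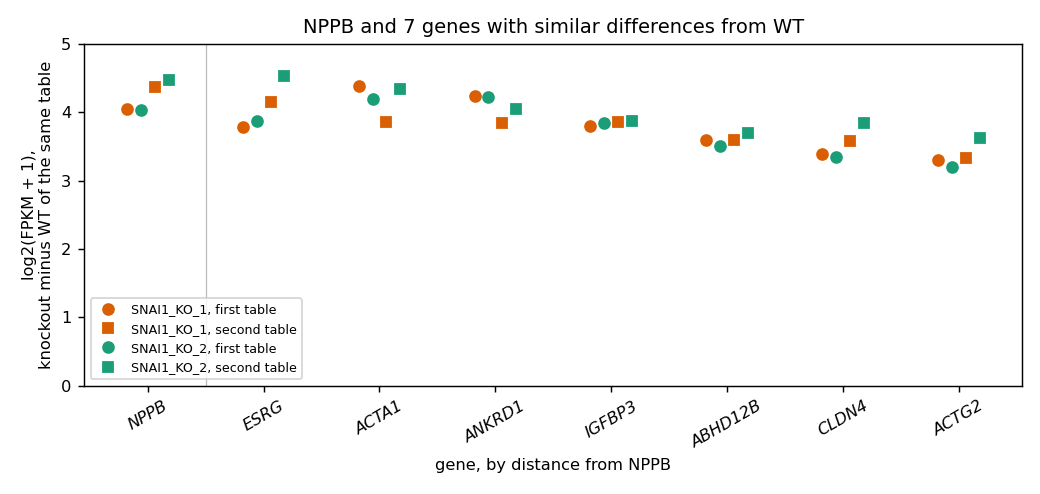
Differences in log2(FPKM + 1) from the WT library of the same table (y) for NPPB and 7 genes close to it (x, ordered by distance). Color gives the knockout group and shape the table. The points run from 4.03 to 4.47 for NPPB and from 3.20 to 3.63 for ACTG2, the most distant of the 7.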

How the data were processed

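The authors deposited FPKM values per gene symbol in 2 tables (38100 and 58324 rows), each with 1 library of WT, SNAI1_KO_1 and SNAI1_KO_2. The submitters' processing notes name hg19, BWA, Bowtie and RSEM without roles or versions, and the annotation is not given in the sources used here. The FPKM unit is written in the second table only, and the first was read as FPKM because it has the same columns and kind of values. Libraries used 2 ug of total RNA and a kit that does not mark strand. Columns name a group but no replicate. Per-sample columns not used numbered 0. Repeated symbols (94 and 340) were left out.

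The 13909 genes whose FPKM averaged 1 or more across 6 libraries were tested on log2(FPKM + 1), a scale that understates changes of low genes, with limma 3.58.1 in R 4.3.3 (group means plus the table as a block, eBayes with trend, residual df 2, prior df 3.34). Tests were two-sided, and p was adjusted by Benjamini-Hochberg across every gene in the fit and called under 0.05. SD and SE refer to libraries. The model was checked on simulated data. Libraries were paired by the table they share: differences between tables correlated across genes at 0.616, 0.666 and 0.676 between groups.

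Members and gene lists were chosen with earlier results of these data known. Besides the 7 members, SNAI1, the neighbors and the genes nearest to NPPB, up to 6 called genes of each list with the largest differences were named, and up to 2 that missed the threshold (all that were tested among the neighbors). Some items that this rule names are not reported here. Genes at or near 0, marker genes, the 4 factors that rose and TEAD1, TEAD2, YAP1 and MRTFB were named outside this rule, after their values were seen. The alternatives left out the block, used 0.1 or 10 as pseudocount, lifted the filter (30248 symbols above 0 in a library), raised it to 5 FPKM, applied quantile normalization or median-ratio scaling, dropped the trend, or left out each library. Running them on the named genes beyond the members, and leaving genes out of list counts, was decided after seeing the data. They were not run on TEAD1, TEAD2, YAP1, MRTFB and MME. Count tests were not run, because FPKM are not counts, and no counting interval is given. Coding stretches came from GENCODE release 29 and promoters from RefSeq (both GRCh38, a build other than that of the files, so no position was joined to an expression value).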

Additional observations from a re-analysis of the deposited data

How the results depend on the processing

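Without the replicate block (the term for the table), 1065 genes were called for both knockout groups, 576 for SNAI1_KO_1 and 698 for SNAI1_KO_2, against 4348, 3327 and 3549 with it, and 71.9%, 75.5% and 74.6% of them were higher, against 50.6% for both groups with it. NPPA then had an adjusted p of 0.435. Without the filter, which raises the number of genes tested, the counts were 2139, 1008 and 1216. Leaving out 1 library at a time, the counts ran from 1728 to 2840, from 962 to 2379 and from 1135 to 2693, lowest for both groups without the WT library of the second table. With fewer libraries these fits have fewer degrees of freedom. The remaining alternatives kept these counts within 1.5 times, and SNAI1_KO_2 against SNAI1_KO_1 gave 0 calls by limma in each of them, with 521 genes at an unadjusted p under 0.05 in the reported fit.

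NPPA passed under quantile normalization (-0.47, adjusted p 0.0429 by limma) and without the mean-variance trend (-0.39, adjusted p 0.0210), and in no other alternative run. Leaving out 1 library, it ran from -0.40 to -0.38 and NPPB from 4.04 to 4.42. With a pseudocount of 10, NPPB was 3.63 and NPR3 -0.022. With a pseudocount of 0.1, NPPC was 0.94 and NPR3 -1.16. A larger pseudocount shrinks every such difference by construction. NPR2 ran from -0.39 to 0.025 on leaving out 1 library, turning sign without the WT library of the second table. Of 93 alternatives of the 7 members, 86 kept direction and side of the threshold, or moved by less than 1 SD where untested.

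Of 578 alternatives of the other named genes, 491 kept direction and side of the threshold and 85 no longer passed, 16 of them without the block, 10 without the filter and 50 on leaving out 1 library. Without the filter IDE, FURIN, PCSK7, NOS3, PRKG1, PDE5A, NKX2-5, SRF, CLCN6 and NPPA-AS1 no longer passed (adjusted p between 0.0642 and 0.157 by limma). CLCN6, IDE, MFN2, PCSK7 and PDE5A did not pass whichever library was left out. The causes of these changes were not tested. For values under 1 FPKM (NPPC, NPR3, CORIN) no precision can be given, since read totals are unknown.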
